A study of Drosophila melanogaster with 3 samples.

Results

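The peaks described here were the TSS-near intronic peaks of Stripe, a zinc finger transcription factor of the EGR family. Of 4041 peaks in the authors' conservative joint list on the 6 main chromosome arms, 1069 had a summit inside a gene body, in no annotated exon, and over 500 and up to 5000 bp away from the closest start site of transcription (TSS) among protein-coding genes. The rule used position alone, neither peak height nor sequence. The material was whole Drosophila melanogaster embryos aged 8 to 24 h of the strain sr-GFP, which carries an insertion for sr-eGFP, the Stripe protein fused to green fluorescent protein. Chromatin was immunoprecipitated against GFP (ChIP-seq) in 3 libraries labelled as biological replicates of the only group, so no condition was compared. The labels do not say how many embryos were pooled or which promoter drives the fusion, and a site bound in few cells cannot be told apart from one bound weakly in many.

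Stripe is known for turning ectodermal cells into tendon cells, the epidermal cells to which somatic muscles attach. EGR-type zinc fingers read a short G-rich core, and intronic sites of fly transcription factors often lie in enhancers that act on the host gene or on a neighbour. Muscle attachment needs integrins and their cytoplasmic partners, and signalling through the EGF receptor is a well-known step of tendon maturation. None of the samples held RNA, so no value below measures the activity of a site or a gene.

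Sequences under 7 of the strongest peaks with a core are shown first, because this core is the feature most of the results turn on. The core was searched on both strands as GTGGGCG (the C form) or GTGGGTG (the T form), and capitals below mark these letters on the strand named. All positions are on dm6, and the bases were read from the Release 6 genome of RefSeq. They lie in introns of drongo (an Arf GTPase-activating protein), stv (a co-chaperone of the BAG family), CG10947, sr itself, bol (an RNA-binding protein of male meiosis), CG4496 and msn (a kinase upstream of JNK).
drongo (chr2L:845713-845753, minus strand): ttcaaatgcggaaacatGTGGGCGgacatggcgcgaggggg
stv (chr3L:13479749-13479789, plus strand): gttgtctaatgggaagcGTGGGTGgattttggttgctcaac
CG10947 (chr2L:20401069-20401109, plus strand): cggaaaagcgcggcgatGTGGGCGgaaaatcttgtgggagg
sr (chr3R:18094804-18094844, minus strand): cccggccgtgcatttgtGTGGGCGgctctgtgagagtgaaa
bol (chr3L:9127258-9127298, minus strand): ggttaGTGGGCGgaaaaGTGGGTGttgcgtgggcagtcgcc
CG4496 (chr2L:7188771-7188811, plus strand): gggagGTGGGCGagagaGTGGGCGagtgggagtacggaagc
msn (chr3L:2583647-2583687, minus strand): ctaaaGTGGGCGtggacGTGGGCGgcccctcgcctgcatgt
In bol, CG4496 and msn the window held 2 cores in the same orientation. A pair of longer windows, in CG5953 and in app (approximated, a palmitoyltransferase), shows members with 5 cores within 100 bp of the summit, some of which overlap or follow each other directly.
CG5953 (chr2L:16524276-16524426, plus strand): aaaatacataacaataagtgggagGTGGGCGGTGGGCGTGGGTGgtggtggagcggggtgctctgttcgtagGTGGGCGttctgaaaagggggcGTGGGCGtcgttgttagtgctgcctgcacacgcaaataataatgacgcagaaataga
app (chr3L:12223405-12223555, minus strand): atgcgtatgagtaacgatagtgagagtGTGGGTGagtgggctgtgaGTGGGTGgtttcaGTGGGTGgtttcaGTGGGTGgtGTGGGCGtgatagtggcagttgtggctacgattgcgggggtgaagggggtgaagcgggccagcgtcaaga
Next to these stand 2 of the strongest members with no core, in CG11050 and in Tlk (Tousled-like kinase), printed without capitals because there is no core to mark.
CG11050 (chr2L:6612663-6612763, plus strand): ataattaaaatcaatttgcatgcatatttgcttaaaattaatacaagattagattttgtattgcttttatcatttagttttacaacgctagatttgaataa
Tlk (chrX:3742165-3742265, plus strand): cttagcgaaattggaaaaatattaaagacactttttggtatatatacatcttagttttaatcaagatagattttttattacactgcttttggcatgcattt
Their windows of 201 bp around the summit had a GC content of 34.3% in CG11050 and 37.8% in Tlk, against a median of 44.3% over all members with no core and 46.8% over all members. Of the other strongest members with no core, CG32772 had 34.3%, and neb and cno had 52.7% each.

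The members were spread over 5 of the 6 arms, with 152 on 2L, 247 on 2R, 237 on 3L, 224 on 3R, 209 on X and 0 on the small chromosome 4, where the list had 0 peaks of any class. They had a median width of 296 bp (74.0 to 681 bp) and a median joint signal of 121, from 3.43 to 919.9. The upper quartile of the width was 296 bp as well, so many members shared this width. The signal is the authors' own value for a peak, deposited with no stated normalization, and serves here to rank and describe peaks within a list. The depth of the libraries is unknown, and intervals cover counting error only. At the lower limit, the nearest member lay in SCAR, 504 bp from the TSS (signal 248), and the nearest intronic peak left out lay in eIF1A at 497 bp (signal 122). At the upper limit, the nearest member lay in bol at 4991 bp (signal 80.0), and the nearest peak left out in hlk at 5003 bp (signal 72.5).

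All of the peaks in the conservative list came from 1 of the authors' joint rankings, whose intervals matched those of replicates 1 and 3. Of 4185 ranked peaks at an irreproducible discovery rate (IDR) of 0.01, 4167 had an interval of replicate 1, 4173 one of replicate 3, and 0 one of replicate 2. The deposited notes, however, name the alignments of all 3 libraries as inputs, so replicate 2 may have entered the joint peaks and their signal. Its own peak list is therefore not an independent check. A thresholded summit of replicate 2 lay within 100 bp of 399 members, 37.3% (95% Wilson interval 34.5 to 40.3), against 37.2% of all conservative peaks. Replicate 1 gave such a summit at 626 members and replicate 3 at 676. All 3 libraries did at 308 members, 28.8% (26.2 to 31.6), against 28.7% of all conservative peaks, so the members' shares were close to the background. A further 271 members were thresholded in 2 libraries, 235 in 1 and 255 in 0.

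The strongest members gave peaks in each library. The strongest of all lay in an intron of Sesn (sestrin, a stress-inducible regulator of TOR signalling), with a joint signal of 919.9 and signals of 319, 215 and 386 in replicates 1, 2 and 3. Its window held 6 cores, all of the T form, and the nearest TSS, 4229 bp away, belonged to CG18128. The member in drongo had signals of 295, 251 and 302 (joint 835) and 2 cores of the C form. The member in stv had signals of 279, 136 and 328 (joint 756) and 1 core 2 bp from the summit, and replicate 2 stood lowest for each of these 3 members. In the intron of sr, 4032 bp downstream of its TSS, the signals were 219, 239 and 267 (joint 734), a mean of 241 ± 24.3 (SD, n = 3). Hph, which encodes the prolyl hydroxylase that controls the hypoxia response, held a member with signals of 244, 193 and 256. In siz, an exchange factor for Arf GTPases, the member had 4 cores and signals of 286, 185 and 159, with replicate 3 lowest. In bol the signals were 259, 162 and 224.

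Of the 20 strongest members, 15 held a core and 17 lay in an intron that is the first of a host transcript. Over all members, 42.6% held a core and 74.9% lay in such an intron. All 20 were thresholded in each of the 3 libraries, which may follow from the ranking, since the joint signal may draw on every library. The 5 without a core were those in CG11050 (232, 178 and 305 in replicates 1, 2 and 3), Tlk (228, 193 and 301), neb (a kinesin; 146, 156 and 266), cno (the junction protein canoe; 176, 154 and 164) and CG32772 (153, 97.2 and 210.1). Except in cno, replicate 3 was the highest of the 3 for these peaks. It was also the highest in 474 of the 896 members with a signal in each library. The remaining members of this rank included sites in CG31522, Pdp1 (a bZIP factor of muscle and the circadian clock), MTF-1 (the metal-responsive transcription factor), Mkp3 (a phosphatase that inactivates ERK) and Mef2, the muscle transcription factor, with a joint signal of 457 and library signals of 177, 129 and 139. Signals of replicates 1 and 2 had a Spearman correlation of 0.70 across the 912 members with a summit in both lists, those of 1 and 3 one of 0.62 (1009 members) and those of 2 and 3 one of 0.68 (912 members). The 3 libraries share a control file, and sites are not independent replicates.

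**Figure D1:**
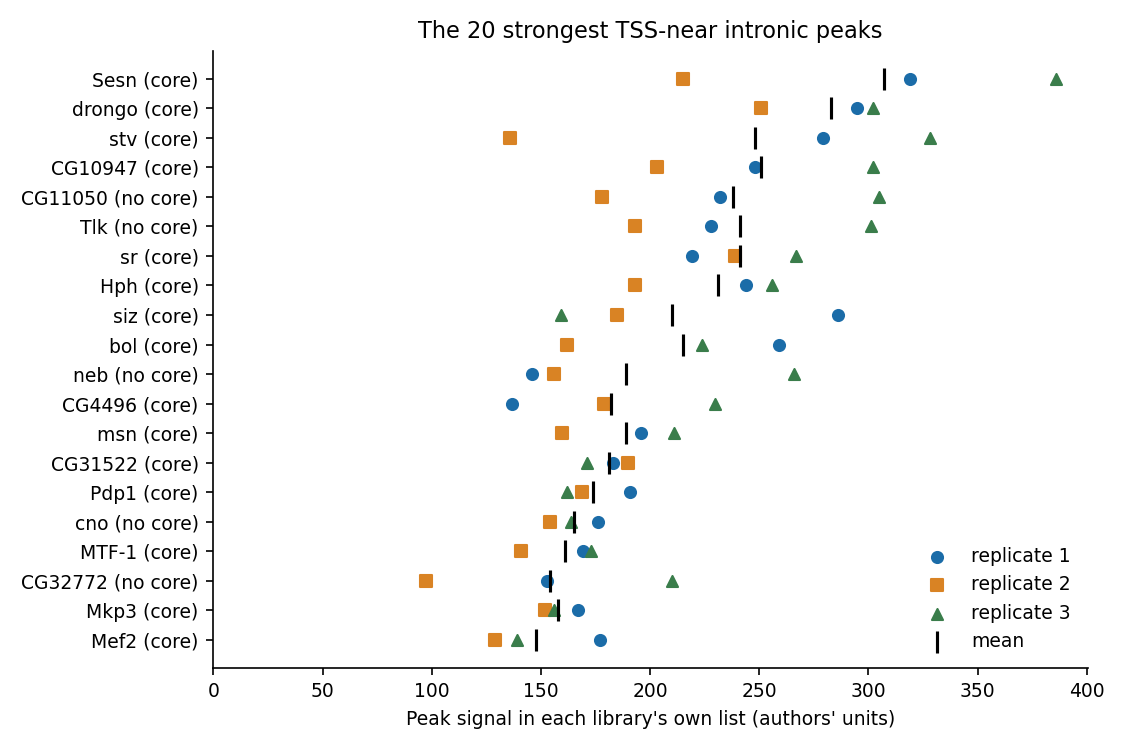
Peak signal (horizontal axis, the authors' units) of the 20 strongest TSS-near intronic peaks in the ranked list of each library, named by host gene and ordered by joint signal. Points are the 3 libraries and the bar is their mean. The member in Sesn spans 215 to 386, and those in CG31522 and Mkp3 show the closest agreement of the 3 libraries, with SDs of 9.52 and 7.63.

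The EGR core was concentrated at the summits. Within 100 bp of the summit, 455 of the 1069 members held a core, 42.6% (95% Wilson interval 39.6 to 45.5), against 37.7% of all conservative peaks. In a window of the same width centred 1000 bp away, 97 members (9.07%) held a core on the side away from the TSS and 75 (7.02%) on the side towards it. The core was at the summit only in 407 members and in the away flank only in 49 (exact two-sided sign test, adjusted p = 4.84e-70 over 18 motifs, n = 1069). Windows of 201 bp spread over all intronic sequence in the members' distance range held the core in 2987 of 42936 cases, 6.96%.

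The 455 members held 626 cores, 323 of the C form and 303 of the T form. The nearest core lay a median of 19.0 bp from the summit, within 25 bp in 64.0% of these members and within 50 bp in 85.3%. Read along the host gene, the nearest core was on the sense strand in 209 of 455 members, 45.9% (41.4 to 50.5). The longer motif GCGTGGGCG with up to 1 mismatch was found in 315 members, 29.5%, of which 92 had no core. Its share was 25.16 percentage points higher at the summits than in the away flanks. For the 92 members with this motif but no core, no background share is given here.

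**Figure D2:**
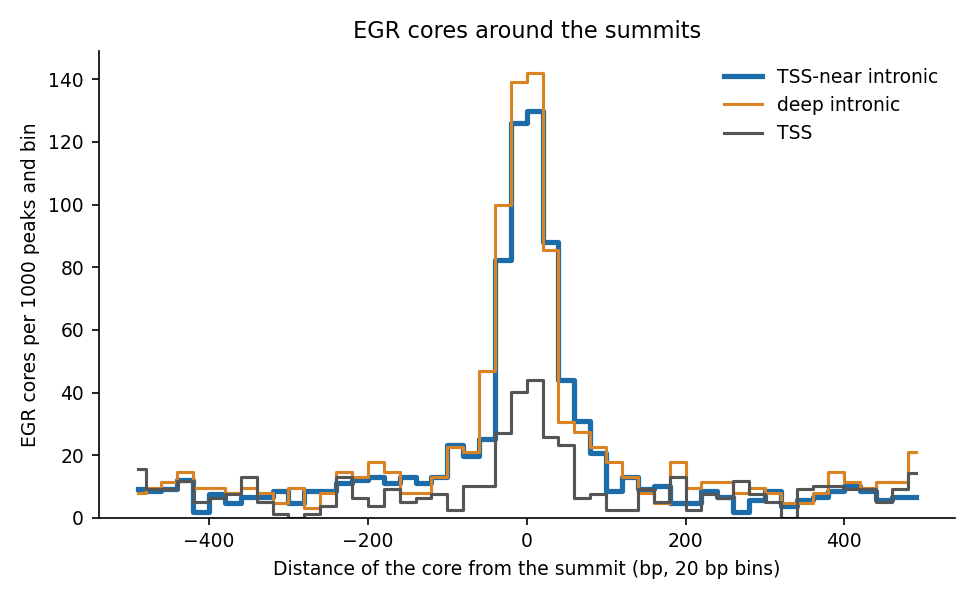
EGR cores per 1000 peaks (vertical axis) in bins of 20 bp by distance from the summit (horizontal axis, bp) for TSS-near intronic, deep intronic and TSS peaks. In the bin from 0 to 20 bp the members reach 130.0 cores per 1000 peaks, deep intronic peaks 142 and TSS peaks 44.0.

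Compared with the other positions, the members held the core more often than peaks at a TSS and slightly more often than peaks beside one. The share was 42.6% in members, against 18.2% of the 773 peaks within 100 bp of a TSS (log2 odds ratio 1.73 ± 0.16 SE, adjusted p = 6.15e-26, n = 4041). It was 35.3% in the 753 TSS flank peaks, over 100 and up to 500 bp from a TSS (log2 odds ratio 0.44 ± 0.14, adjusted p = 0.00380, n = 4041). This last difference no longer passed with the 9-base motif, 1 mismatch allowed, in place of the core (0.22, adjusted p = 0.201, n = 4041). These values come from a logistic fit over all 4041 peaks, with errors clustered on the gene of the nearest TSS and adjustment over the 5 comparisons.

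Intronic peaks over 5000 bp from a TSS, called deep intronic here, held the core in 47.3% of 620 cases. The members' log2 odds ratio against them was -0.27, with an interval of -0.57 to 0.02 (adjusted p = 0.0878), and in the authors' longest joint list it was -0.28 with adjusted p = 0.0418, n = 5032. Exonic peaks held the core in 52.6% of 302 cases, so the members were lower (log2 odds ratio -0.59 ± 0.19, adjusted p = 0.00380, n = 4041). Among peaks with a global IDR of 0.001 or less the difference did not pass (-0.51, adjusted p = 0.0772, n = 2367). With the GC content of the window in the fit, the difference over the whole list was 0.04 (adjusted p = 0.859, n = 4041). The median GC content was 46.8% at members and 51.7% at exonic peaks. Intergenic peaks held the core in 39.9% of 524 cases, and the difference did not pass (0.16, interval -0.16 to 0.48, adjusted p = 0.324, n = 4041).

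The same order was seen when each library's own thresholded list was classified by the same rule. TSS-near intronic peaks numbered 727 of 2751 in replicate 1, 435 of 1678 in replicate 2 and 820 of 3008 in replicate 3. Their core share was 46.8%, 49.2% and 40.2%, a mean of 45.4% ± 4.63 (SD, n = 3), against 23.6% ± 4.23 at TSSs. In each library it was above that of TSS, TSS flank and intergenic peaks and below that of deep intronic and exonic peaks. The exact sign-flip test over 3 libraries cannot give a p below 0.25.

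**Figure D3:**
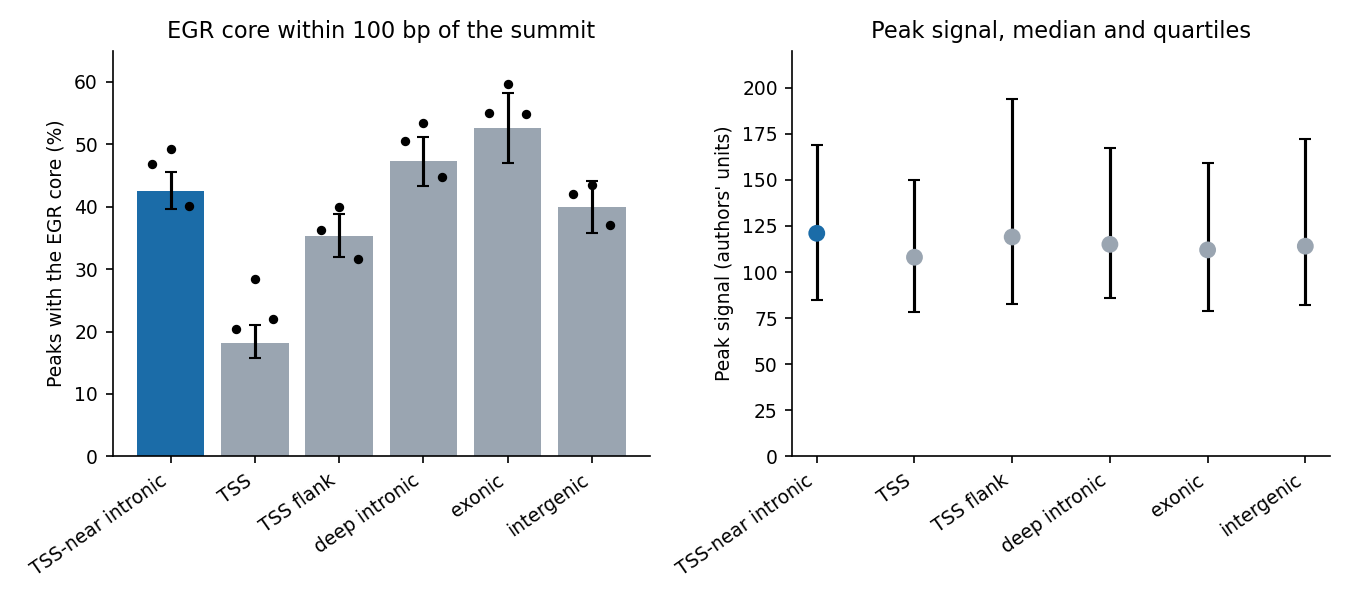
Left, share of peaks with the EGR core (vertical axis, %) by position class in the conservative list, with 95% Wilson intervals as bars; black points are the own lists of replicates 1, 2 and 3 from left to right. Right, joint peak signal (vertical axis, the authors' units), median with quartiles, for the same classes. The members' core share of 42.6% lies above the 18.2% of TSS peaks, whereas their median signal of 121 lies within the quartiles of each other class.

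Peak height differed little by position. The median joint signal was 121 at members (quartiles 85.0 to 169), against 108 at TSSs, 119 in TSS flanks, 115 at deep intronic, 112 at exonic and 114 at intergenic peaks. None of the 5 differences in log2 signal passed the test over the whole list. Among peaks with a global IDR of 0.001 or less, the members stood lower than TSS flank peaks (log2 difference -0.14, adjusted p = 0.0344, n = 2367). The members stood 0.10 higher on the log2 scale than TSS peaks (interval 0.02 to 0.18, adjusted p = 0.0819, n = 4041), and with peaks of a signal under 10 left out, 6 of them members, a choice made after seeing the data, the value was 0.11 with adjusted p = 0.0302, n = 4010. As a mean percentile over libraries, the members stood 3.01 points higher than TSS peaks without replicate 1 (adjusted p = 0.0239, n = 4041), 3.80 points higher than exonic peaks without replicate 1 (adjusted p = 0.0487) and 2.19 points higher than TSS flank peaks without replicate 2 (adjusted p = 0.0433).

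Support from all 3 libraries likewise passed in none of the 5 comparisons, with adjusted p values of 0.148 to 0.747. The largest, 28.8% of members against 24.3% of TSS peaks, was a log2 odds ratio of 0.33 ± 0.16. Counting only 2 libraries, it was 0.48 without replicate 2 (adjusted p = 0.00264, n = 4041) and 0.40 without replicate 3 (adjusted p = 0.0449). Replicate 2 alone gave a thresholded summit at 37.3% of members, against 31.6% of TSS peaks (adjusted p = 0.0589, n = 4041) and 42.5% of TSS flank peaks (adjusted p = 0.0664).

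Within the members, a core went with a higher signal, and more cores with a higher one still. The median joint signal was 112 in the 614 members with 0 cores, 122 in the 333 with 1, 154 in the 87 with 2 and 177 in the 35 with 3 or more. Members with a core stood 0.30 ± 0.05 higher in log2 signal than those without (SE; fit over 1069 members, errors clustered by gene, p = 5.71e-09, n = 1069), and each further core went with 0.25 ± 0.03 (p = 1.43e-13). In a fit with both forms, the value was 0.31 ± 0.06 for the C form and 0.25 ± 0.06 for the T form, and the difference between them was not tested. With distance and GC content in the fit, the core's value was 0.30 ± 0.05.

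The joint ranking did not hold the intervals of replicate 2, but its reads may have entered the joint signal. Replicate 2 gave the same order by number of cores, which is therefore no independent check. Its thresholded summits lay at 32.2% of members with 0 cores, 38.1% with 1, 58.6% with 2 and 65.7% with 3 or more. In the own lists, members with a core had a median signal of 48.5 in replicate 1, 37.6 in replicate 2 and 49.5 in replicate 3, against 40.8, 31.9 and 47.4 in members without a core. When the members were divided into 5 equal groups by joint signal, the core share was 32.2%, 39.3%, 41.3%, 47.2% and 52.8% in ascending order. The share thresholded in replicate 2 over the same groups was 0.935%, 4.67%, 25.4%, 60.3% and 95.3%. This rise is no separate support, since the joint signal that set the groups may include replicate 2. In the lowest group, with joint signals of 79.7 or less, that library thus gave almost no thresholded summit.

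Seen from the sequence, most intronic cores lay at no peak. Intronic sequence in the same distance range held 8872 cores, of which 640, 7.21% (6.69 to 7.77), lay within 100 bp of a conservative summit. The share was 9.40% for the C form and 5.79% for the T form. It was 25.3% of 233 C-form cores preceded by GC, that is the full GCGTGGGCG, and 16.0% of 200 T-form cores preceded by GC, that is GCGTGGGTG. Cores with 0 others within 100 bp lay at a peak in 5.60% of 6434 cases, those with 1 other in 10.2% of 1649 and those with 2 or more in 14.2% of 789.

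A logistic fit over these cores gave a log2 odds ratio of 0.77 ± 0.13 for the C form (adjusted p = 1.32e-08, n = 8872), 1.88 ± 0.19 for a preceding GC (2.84e-22), 1.25 ± 0.17 for at least 1 other core nearby (5.52e-13) and -0.44 ± 0.09 for each doubling of the distance to the TSS (5.65e-07). Errors were clustered by gene and p values adjusted over the 4 terms. Cores close together share a summit, so they do not count as separate sites.

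**Figure D4:**
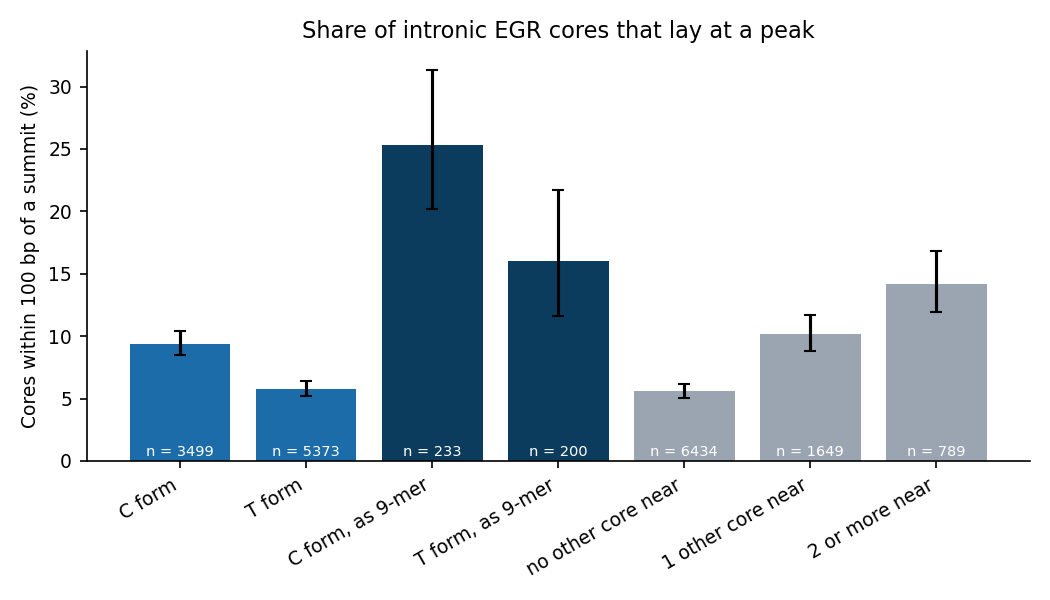
Share of intronic EGR cores in the members' distance range that lay within 100 bp of a conservative summit (vertical axis, %), with 95% Wilson intervals. Bars are the forms of the core, each form within the 9-base motif, and cores by the number of others within 100 bp; the share reaches 25.3% for the C form in the 9-base motif and is 5.60% for cores with no other nearby.

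Of the other 17 motifs, 4 differed between the members' summits and flanks. Each was searched on both strands in the same windows. GAGAG, bound by GAGA factor, was found in 34.1% of members, against 22.6% of their away flanks (exact sign test, adjusted p = 2.08e-08), 20.7% of all eligible intronic windows and 35.1% of all conservative peaks. GGGCGGG, a site of Sp and KLF factors, was found in 6.45%, against 3.09% (adjusted p = 0.00118, n = 1069), with 1.81% of intronic windows and 6.01% of all peaks. It overlaps the EGR core, since a C-form core followed by GG contains it. Of the 69 members with GGGCGGG, 46 also held the core, and 28 held it within such an extended core. The Su(H) site, GTGAGAA or GTGGGAA after C or T, was found in 3.09% of members, against 1.40% of flanks (adjusted p = 0.0478, n = 1069), 2.28% of intronic windows and 2.85% of all peaks. TAATTA, a homeodomain site, was less frequent at the summits, in 7.02% of members against 12.2% of flanks (adjusted p = 0.000384, n = 1069), with 15.5% of intronic windows and 7.45% of all peaks. The other 13 motifs of the panel did not pass.

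The 17 other motifs were also compared between members and TSS peaks, where 6 passed, and between members and deep intronic peaks, where 0 of 15 passed. The fit gave no value there for DRE and Grainy head, because deep intronic peaks held neither. Promoter motifs were nearly absent from the members. TATCGATA, the DRE element, was found in 0.187% of members against 7.89% of TSS peaks (adjusted p = 1.83e-06, n = 3119), and in 1.76% of all peaks and 0.338% of intronic windows. GGTCACAC, a site of the promoter factor M1BP, was found in 0.561% against 6.86% (adjusted p = 1.01e-07, n = 4041), and in 1.83% of all peaks and 0.261% of intronic windows. An ETS site, CCGGAA followed by A or G and then T, was found in 0.281% against 2.20% (adjusted p = 0.00752, n = 4041), and in 1.11% of all peaks and 0.859% of intronic windows.

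The remaining 3 motifs that passed were more frequent at members than at TSS peaks. CATATG, an E-box read by Twist, was found in 7.76% against 3.75% (adjusted p = 0.00509, n = 4041), but also in 6.74% of the members' flanks, 6.82% of intronic windows and 6.58% of all peaks. TGACTCA or TGAGTCA, the AP-1 site, was found in 3.27% against 0.906% (adjusted p = 0.0109, n = 4041), with 2.71% of flanks, 2.27% of intronic windows and 1.73% of all peaks. GGGCGGG was found in 6.45% of members against 3.36% of TSS peaks (adjusted p = 0.0184, n = 4041). Within 50 bp of the summit, 4 of these 6 differences from TSS peaks passed, and those of AP-1 (adjusted p = 0.241, n = 4041) and GGGCGGG (adjusted p = 0.120, n = 4041) did not. A motif match is a stretch of letters and no measure of binding.

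Peaks were denser near the TSS, where the core share was not higher. Per megabase of intron, the list held 73.3 peaks over 500 and up to 1000 bp from the TSS, 53.5 up to 2000 bp, 41.8 up to 3000 bp, 39.8 up to 4000 bp and 37.0 up to 5000 bp. Beyond the members' range it held 33.9 up to 10000 bp and 15.4 further out. The core share was 39.8%, 40.7%, 45.4%, 43.9% and 48.2% over the members' 5 ranges, lowest where peaks were densest, with intervals that overlapped and no test of the trend.

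**Figure D5:**
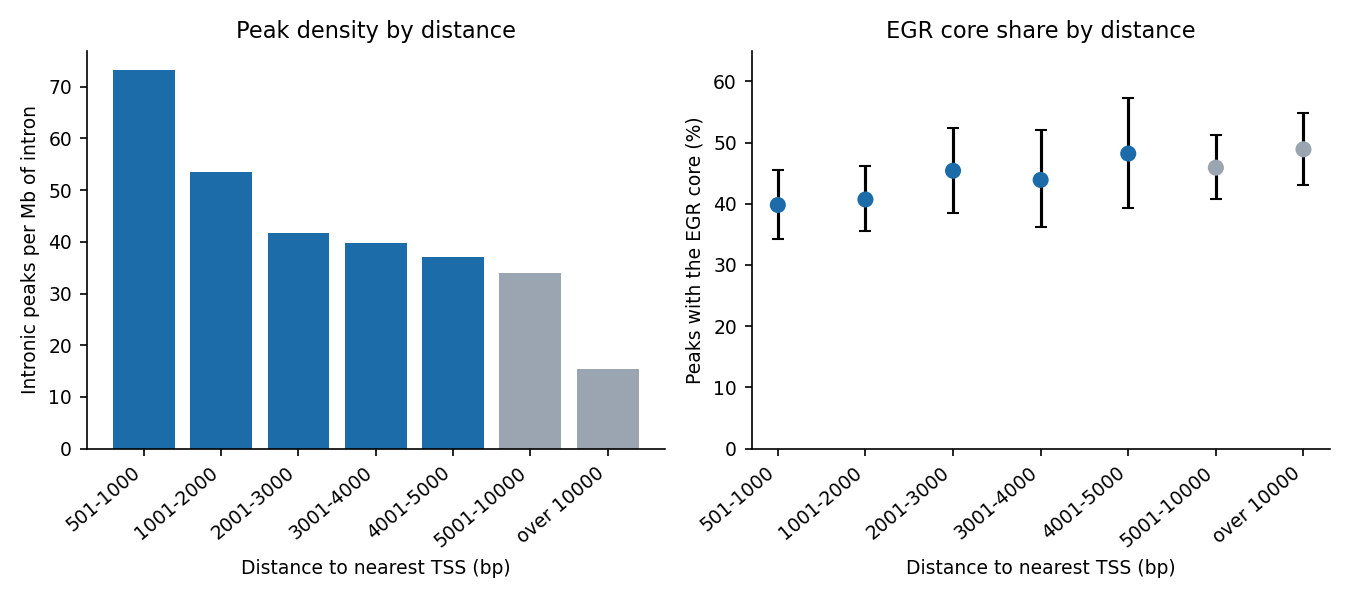
Left, intronic peaks per megabase of intron (vertical axis) by distance to the nearest TSS (horizontal axis, bp); blue bars are the members' range and grey bars lie beyond it. Right, share of these peaks with the EGR core (vertical axis, %) with 95% Wilson intervals. Density is 73.3 in the range nearest to the TSS and 37.0 between 4000 and 5000 bp, and the core shares run from 39.8% to 48.2%.

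Members lay mostly in introns that are the first of some transcript of the host. This was so for 801 members, 74.9% (72.2 to 77.4), against 58.9% of eligible intronic positions and 60.8% when these were weighted to the members' distances. The nearest TSS was the host's and upstream of the summit in 649 members, 60.7%, against 58.9% of weighted positions. In 278 members, 26.0% (23.5 to 28.7), it was a TSS of the host further downstream, an alternative start, against 16.8% of weighted positions. In 142, 13.3% (11.4 to 15.5), it was a TSS of another gene, against 24.3%. These backgrounds cover all intron positions and take no account of open chromatin, which was not measured. The core share was 42.8% in the first of these groups, 42.8% in the second and 40.8% in the third. The intron had a median length of 6987 bp at members and 6104 bp over eligible positions, and the nearer splice site was a median of 1267 bp away, against 1077 bp.

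The members were hosted by 730 protein-coding genes, 5.23% of 13945 and 8.02% of the 9103 with intronic sequence in the distance range. Of these genes, 495 hosted 1 member, 143 hosted 2 and 92 hosted 3 or more. Genes with 3 or more were long, with a median of 31.2 kb against 16.8 kb over all host genes. They held 338 members, of which 42.0% had a core. The zinc finger gene shn, which acts downstream of BMP signalling, hosted 8 members, with joint signals of 28.7 to 299, of which 4 had a core. Mob2, kirre, sr, CG14434 and ush (a cofactor of GATA factors) hosted 6 each. Of the 6 in sr, 5 were thresholded in all 3 libraries, and of the 6 in Mob2 and the 6 in CG14434 none was.

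Genes with several members differed in whether these held the core. In 8 of the 92 genes each member had a core, and in 18 none had. Whether these counts differ from what the core share of 42.0% alone would give was not tested. In bol, all 5 members held the core, with joint signals of 74.9 to 641. In Mkp3, all 3 members held it, had joint signals of 390.0 to 481 and were thresholded in all 3 libraries, which was so in no other gene of the 92. Pax and Dyb are the further cases with at least 4 members. In Tlk, 0 of 5 members held the core, in Dg 0 of 4 and in lbk 0 of 4, of which 3 were thresholded in all 3 libraries. Dg (dystroglycan), Dyb (dystrobrevin) and Dys (dystrophin) encode parts of the complex that links muscle fibres to the extracellular matrix. They hosted 4, 4 and 3 members, with the core in 0, 4 and 1 of these.

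Among the tendon genes, 9 of 16 hosted a member, 56.2% of those with eligible intron, against 8.02% of all protein-coding genes with such intron. There were 21 members in all, 165 per megabase of eligible intron, against 49.8 over all introns in the distance range. Of these, 10 held the core (47.6%), against 42.6% of all members, and the median joint signal was 133, against 121 over all members. In sr, besides the strongest, 1 member with 0 cores had signals of 136, 79.9 and 104 in replicates 1, 2 and 3, and another with 0 cores had 70.5, 74.9 and 148. In tx, the tendon bHLH gene also known as delilah, the member had signals of 85.6, 88.8 and 142 and 1 core of the T form 6 bp from the summit. The spectraplakin gene shot, needed for the tendon cytoskeleton, hosted 5 members, with joint signals of 51.6 to 147 and none thresholded in replicate 2. Lrt, which encodes a leucine-rich protein of tendon cells, hosted 3, the strongest with signals of 63.2, 37.6 and 51.6. Tsp (thrombospondin, an integrin ligand) hosted 2, and slow, how, if and mys hosted 1 each.

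Among the genes of integrin adhesion, 10 of 22 hosted a member, 52.6% of those with eligible intron (8.02% over all genes), with 20 members, or 173 per megabase. Of these, 14 held the core (70.0%), against 42.6% of all members. Of the 20, 5 were thresholded in all 3 libraries, where the share over all members was 28.8%. In Pax (paxillin), all 5 members held it, the strongest with signals of 92.6, 110.3 and 110.5 and 3 cores. In rhea (talin), the strongest of 2 members had signals of 97.3, 76.0 and 137, and in CAP, a vinculin-binding adaptor, the strongest of 3 had 106, 96.7 and 143. Both held 2 cores. Vinc (vinculin) hosted 3, Actn (alpha-actinin) 2, and Zasp52 1. The integrin subunit genes hosted weaker members. The member in mys (the beta subunit) had a joint signal of 46.0, that in scb 56.3, that in if 84.8 and that in mew 109. Of these 4, only those in if and mew were thresholded in a library, each in replicate 3. The members in mys and if count in the tendon list as well.

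Among the genes of somatic muscle, 7 of 36 hosted a member, 20.6% of those with eligible intron (8.02% over all genes). There were 17 members, or 62.7 per megabase, against 49.8 over all introns in the distance range. Of these, 10 held the core (58.8%), against 42.6% of all members. Mef2 hosted 4, 3 of them thresholded in all 3 libraries. The adhesion genes of myoblast fusion were kirre with 6 members, sns with 2 and rst with 1, and the adaptor of fusion rols had 3. The member in rst lies inside kirre as well and was counted once. Another of the 6 in kirre also lies in an intron of CG32795. The nearest TSS belonged to CG12498 for the strongest in kirre and to CG4116 for the member with a joint signal of 96.2. The strongest in kirre had signals of 82.4, 64.9 and 126, and the strongest in sns 85.9, 67.2 and 79.1, each with 2 cores of the C form. The genes of contractile proteins hosted 1 member, in Prm (paramyosin), with a joint signal of 89.8, thresholded in 0 libraries. The member in kon, which guides muscles to tendons, had 98.1, 59.1 and 73.2 and no core.

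Among the genes of the EGFR pathway, 10 of 18 hosted a member, 58.8% of those with eligible intron (8.02% over all genes), with 18 members, or 185 per megabase. Of these, 3 held the core, 16.7%, against 42.6% of all members. Their median joint signal was 145, against 121, and 8 of the 18 were thresholded in all 3 libraries, where the share over all members was 28.8%. The receptor gene Egfr hosted 3, with joint signals of 74.5 to 155. Among genes that release the ligand, ru (a rhomboid protease) hosted 2, the stronger with 60.6, 80.2 and 80.8 and no core, rho hosted 1 with a T-form core 76 bp from the summit, and S (Star, which carries the ligand out of the endoplasmic reticulum) hosted 1. Among inhibitors, aos (argos, which sequesters the ligand) hosted 1 with 42.4, 65.5 and 98.2 and no core, and sty (sprouty) hosted 3 with none. Among nuclear effectors, the ETS repressor gene aop hosted 3 and the ETS activator gene pnt 2, with 0 cores. The adaptor gene drk hosted 1 and Krn 1, the last in an intron shared with Ndfip.

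The other lists hosted at most 8 members each. Over all introns in the distance range, there were 49.8 members per megabase. Muscle attachment and guidance held 69.2 and the Notch pathway 63.4, next to the 62.7 of somatic muscle. Below the overall density were matrix genes with 33.6, hormone receptor and ecdysone genes with 32.7 and segmentation genes with 12.1. Of all protein-coding genes, 5.23% hosted a member. Genes of muscle attachment and guidance did in 6 of 16 cases, among them NetB with signals of 68.6, 45.3 and 65.4. Hormone receptor and ecdysone genes did in 6 of 16, among them Eip75B with 80.0, 51.8 and 64.8, and matrix genes in 3 of 16, with 0 of 4 members holding a core. Notch pathway genes did in 2 of 11, mam and neur, and segmentation genes in 1 of 17, ptc. Of genes that mark other cell types of the embryo, those of epidermis and trachea did in 3 of 15 (grh, trh and shg), neuronal genes in 1 of 15 (elav), hemocyte genes in 0 of 12, and genes of gut and fat body in 0 of 12. The densities were 53.7 per megabase for epidermis and trachea, 12.5 for neurons and 0 for both of the last lists, whose eligible introns were short, at 0.0269 Mb and 0.0519 Mb. The list counts are descriptions with no test, since the lists were drawn up with earlier results of these data known.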

How the data were processed

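ChIP-seq peak lists of sr-eGFP embryos were deposited by the authors on dm6: a ranked and a thresholded list for each of 3 libraries, and joint lists. Per the deposited notes, IDR thresholding was applied, with 1 control file for all libraries; the aligner is not given in the sources used here, nor is the caller. The deposited signal column is the authors' peak signal, the deposited score a scaled IDR, and −log10 of the global IDR and of the peak caller's q-value were deposited too. Read depth is unknown. In the labels, sr is entered as the antibody, whereas the description names anti-GFP, which was followed. An age entry outside the stated range was not used.

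Summits of the conservative list were assigned to TSS (up to 100 bp from a protein-coding TSS), TSS flank (up to 500 bp), TSS-near intronic, deep intronic, exonic or intergenic, with Ensembl release 115, which uses the same Release 6 coordinates; transposable elements counted as genes and exons. The library signal is the highest among ranked summits within 100 bp of the joint summit. Motifs were searched within 100 bp of the summit with Python 3.11.15 and numpy 2.4.6. Fits used statsmodels 0.14.6, with standard errors clustered on the gene of the nearest TSS, Wald tests and Benjamini-Hochberg adjustment, at a threshold of 0.05. The fits over position classes were checked on simulated data, with a gene effect simulated for signal but not for core presence. The fits within members and over intronic cores were not checked in this way. Replicates are as labelled; nothing says that their embryos were separate cultures, so spreads may be technical.

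The panel also held Zelda (CAGGTAG), Grainy head (AACCGGTT), Tinman (TCAAGTG) and Pho (GCCATNTT). It further held sites of Mef2 (by name alone), TEAD (CATTCC with either A or T after it), of GATA factors (GATAAG with either A or T ahead of it) and of Runx factors (AACCACA, where the fifth letter may be G instead). Members, lists, motifs and tests were chosen with earlier results of these data known. The named genes are the hosts of the 20 strongest members, genes hosting 3 or more, members in the tendon, integrin, muscle and EGFR lists, up to 4 from each other list, and those at the limits. The tests in replicate 2 alone, the share of intronic cores at a peak, the intron background, the origin of the joint list, the exclusion of peaks with a signal under 10, the other windows for the motif panel and the annotation without transposable elements were added after seeing the data. Alternatives covered the list, the IDR limit, distances, annotation, windows, motif, covariates and each left-out replicate. List symbols were matched to the annotation as written, and unmatched ones were not analysed here.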

Additional observations from a re-analysis of the deposited data

How the results depend on the processing

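Over 232 planned and added recalculations of the results, 200 counted as unchanged. For tested differences this meant the same direction and side of the threshold, including differences that passed in neither case. For counts it meant a ratio within a set limit, and for the core share of the own lists a shift below its SD. At a global IDR of 0.001 or less, 647 peaks met the rule, the core difference from exonic peaks no longer passed (-0.51, adjusted p = 0.0772, n = 2367), the log2 signal difference from TSS flank peaks became a call (-0.14, adjusted p = 0.0344, n = 2367), and the signal differences that turned in sign, none of them past the threshold, were -0.00468 from TSS, -0.03 from exonic and -0.01 from intergenic peaks. In the longest joint list the core difference from deep intronic peaks was -0.28. The 9-base motif with up to 1 mismatch gave a core difference of 0.22 from TSS flank peaks, and GC content 0.04 from exonic peaks. With the TSSs of all genes the difference in 3-library support from deep intronic peaks was -0.02, and in replicate 2 alone -0.01. With log2 signal in the fit, support differed by -0.06 from TSS, -0.08 from deep intronic and -0.04 from exonic peaks. Merging summits within 500 bp gave a signal difference of -0.01 from deep intronic peaks, and leaving out signals under 10 gave 0.11 from TSS peaks. As a mean percentile over the libraries, where a library with no summit within 100 bp counts as 0, signal differed by 2.27 points from TSS flank and -0.25 from intergenic peaks. With a motif window of 50 bp the mean core share of the own lists was 38.1%, and 4 in place of 6 other motifs differed from TSS peaks.

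With 1 replicate left out, the signal differences in percentile points were 0.99 to 3.01 from TSS, 1.89 to 2.74 from TSS flank, -0.05 to 0.63 from deep intronic, 1.79 to 3.80 from exonic and -1.01 to 1.04 from intergenic peaks. Support differed by 0.34 to 0.48 from TSS, -0.34 to 0.15 from TSS flank, -0.01 to 0.09 from deep intronic, 0.05 to 0.25 from exonic and -0.10 to 0.05 from intergenic peaks, and the mean core share of the own lists was 43.5% to 48.0%. The cause of each change was not tested. The core differences from TSS peaks and from the flanks, and that in signal between members with and without the core, kept their direction and side of the threshold in the alternatives run. No paired analysis was possible because the series has 1 group.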
